A study of Rattus norvegicus with 8 samples.

Results

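The 6 genes described here are the mitochondrially encoded subunits of respiratory complexes III, IV and V. They were chosen by Ensembl rat gene ID and are 6 of the 21549 gene IDs in each file. Complex IV is represented by mt-Co1 (ENSRNOG00000034234), mt-Co2 (ENSRNOG00000030371) and mt-Co3 (ENSRNOG00000030700). Complex III is represented by mt-Cyb (ENSRNOG00000031766), and complex V by mt-Atp6 (ENSRNOG00000031979) and mt-Atp8 (ENSRNOG00000033299). All 6 were found, and all 6 passed the filter on low counts.

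RNA was sequenced from heart tissue of Sprague Dawley rats, an outbred laboratory strain, at an age of 3 months. Hearts of 4 rats kept in normoxia were compared with hearts of 4 rats exposed to chronic hypoxia, a sustained reduction of oxygen, with 1 library per rat. No allele, transgene or drug is named in the labels. The sources used here do not state how low the oxygen was, how long the exposure lasted, which sex the rats were or which part of the heart was taken.

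Mitochondrial DNA is a small circular genome that encodes a few core subunits of the respiratory chain, while nuclear genes encode the other subunits of the same complexes. Complex III passes electrons from ubiquinol to cytochrome c, complex IV (cytochrome c oxidase) passes them on to oxygen, and complex V (ATP synthase) uses the proton gradient to make ATP. The genes here lie on the same coding strand and are transcribed as long polycistronic RNA, which is cut mostly at the tRNAs between them. mt-Atp8 and mt-Atp6 share an mRNA and their reading frames overlap. Heart muscle is dense in mitochondria, and these transcripts are among the most abundant in it.

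The libraries held between 26229304 and 32160710 counts each, and 14214 genes entered the test. No pair of libraries agreed within sampling noise. Over genes with at least 20 counts in a pair, the mean chi-square per gene, about 1 when libraries differ by sampling alone, was 9.29 to 14.9 between normoxia libraries. Between hypoxia libraries 1 and 2 it was 42.1, between 3 and 4 it was 33.8, and across these pairs it was 67.0 to 98.2. This mean included the members, and abundant genes weigh most in it. On this measure spread was wider among the hypoxic hearts, and their libraries 1 and 2 stood apart from 3 and 4. The label of heart was not checked against cell type markers, because no marker symbol could be matched to an ID. In whole tissue, fewer cells of a type and less RNA per cell cannot be told apart.

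Together the 6 genes held more than 25% of all counts in every library, and a larger share in every hypoxic heart. In normoxia libraries 1 to 4 they held 25.9%, 26.1%, 25.4% and 26.7% of counts. In hypoxia libraries 1 to 4 they held 27.4%, 30.3%, 29.3% and 31.7%. The group means were 26.0 ± 0.516% and 29.7 ± 1.82% (SD, n = 4 each), and the groups did not overlap. As a share of summed FPKM (counts scaled by library total and gene length), the same 6 genes stood at 37.7 ± 0.516% and 39.6 ± 2.19%, and there the groups overlapped, with hypoxia library 1 lowest of all 8 at 36.6%. No test was made on these sums. Counting error was small beside these spreads: for the 5 abundant genes, the exact 95% binomial interval of a library's share reached at most 0.0132 percentage points to either side, which covers counting error only.

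**Figure D1:**
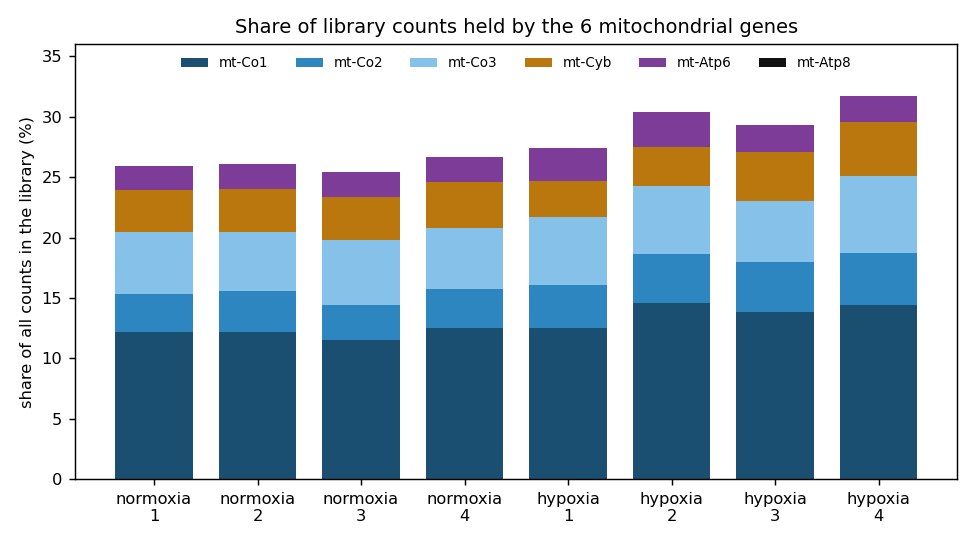
Stacked bars show the percent of all counts in each library held by each of the 6 genes, with 4 normoxia libraries on the left and 4 hypoxia libraries on the right. The bars reach 25.4% to 26.7% in normoxia and 27.4% to 31.7% in hypoxia, and mt-Atp8 is too low to be seen.

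mt-Co2 and mt-Atp6 rose in chronic hypoxia, by 1.43-fold and 1.39-fold, and none of the other members passed the test. Both calls were lost when a trend of level on gene-model length was taken out of each library (edgeR adjusted p = 0.150 and 0.151). Changes are given relative to TMM scaling (trimmed mean of M values), which sets libraries to a common level across most genes, and CPM are counts scaled in that way to a common library size. In edgeR's quasi-likelihood test with Benjamini-Hochberg adjustment over all 14214 genes, 2 of the 6 had an adjusted p under 0.05 and were called, both higher, beside 33.0% of all genes called in either direction and 17.7% called higher. None was called lower, beside 15.3% of all genes. Among the tenth of tested genes with the highest mean level, 29.1% were called higher. All 6 fitted log2 fold changes were above 0, beside 50.8% of all genes tested. Their median was 0.43, while the median over all genes tested was 0.01. All 6 also lay above 0 with RLE, upper quartile or library-total scaling and in DESeq2 and limma-voom. With library totals alone mt-Cyb was at 0.02. The 6 genes are made from shared precursor RNA, so they are not 6 independent observations.

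Within complex IV, mt-Co1, whose protein holds the heme and copper centre where oxygen is reduced, was the most abundant gene in every library, by counts and by FPKM. Its levels were 113670, 112890, 107563 and 121677 CPM in normoxia libraries 1 to 4 and 127368, 162517, 139082 and 161399 CPM in hypoxia libraries 1 to 4. Each hypoxic heart lay above each normoxic one on this scale. The log2 fold change was 0.37 (SE 0.14, a fold of 1.30), and the edgeR adjusted p of 0.0602 missed the threshold. Its share of counts averaged 12.1 ± 0.432% under normoxia and 13.8 ± 0.958% under hypoxia (SD, n = 4 each, two-sided exact permutation p = 0.0571), and hypoxia library 1 at 12.49% lay just below normoxia library 4 at 12.51%. The adjusted p of mt-Co1 was on the other side of the threshold without hypoxia library 1 (log2 fold change 0.43, edgeR adjusted p = 0.0395), without hypoxia library 3 (0.40, edgeR adjusted p = 0.0421), and in DESeq2 (0.37, DESeq2 adjusted p = 0.00132).

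mt-Co2, the subunit that takes electrons from cytochrome c, had the clearest difference of the 6. Its levels were 29605, 30764, 27752 and 31502 CPM in normoxia libraries 1 to 4 and 36282, 45155, 41973 and 47450 CPM in hypoxia libraries 1 to 4. The groups did not overlap, and hypoxia library 1 was the lowest of its group, as it was for mt-Co1. The fitted change on the log2 scale was 0.51 (SE 0.12, edgeR adjusted p = 0.0116), higher in 4 of 4 hypoxic hearts. It made up 3.18 ± 0.154% of normoxia counts and 4.01 ± 0.311% of hypoxia counts (SD, n = 4 each), with an exact permutation p of 0.0286, the smallest that 4 against 4 libraries can give. That p was not adjusted over the 6 genes. The call remained with each library left out, with adjusted p from 0.00673 to 0.0445 in edgeR. It did not remain with the length trend removed, where the fitted change was 0.28 on the log2 scale (SE 0.14, edgeR adjusted p = 0.150).

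mt-Co3, a core subunit of complex IV without a metal centre, stood second by counts in all 8 libraries. Its levels were 47854, 45534, 49800 and 48665 CPM in normoxia and 57532, 62698, 50283 and 71592 CPM in hypoxia. Hypoxia library 3 lay barely above the highest normoxia library, while the other hypoxia libraries were well above it. The log2 fold change was 0.34 (SE 0.14), and the edgeR adjusted p of 0.0835 did not pass. Without hypoxia library 3 it was 0.42 with an edgeR adjusted p of 0.0230. The shares of counts, 5.10 ± 0.173% and 5.67 ± 0.576% (SD, n = 4 each, exact permutation p = 0.114), overlapped.

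Summed over its 3 genes, complex IV held 20.5%, 20.5%, 19.8% and 20.8% of counts in normoxia and 21.7%, 24.3%, 23.0% and 25.1% in hypoxia, so every hypoxic heart was above every normoxic one. By group this was 20.4 ± 0.417% and 23.5 ± 1.49% (SD, n = 4 each), a description with no test. As a share of summed FPKM the groups overlapped, at 27.9% to 28.7% in normoxia and 27.6% to 32.2% in hypoxia, where library 1 was the lowest of all 8.

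**Figure D2:**
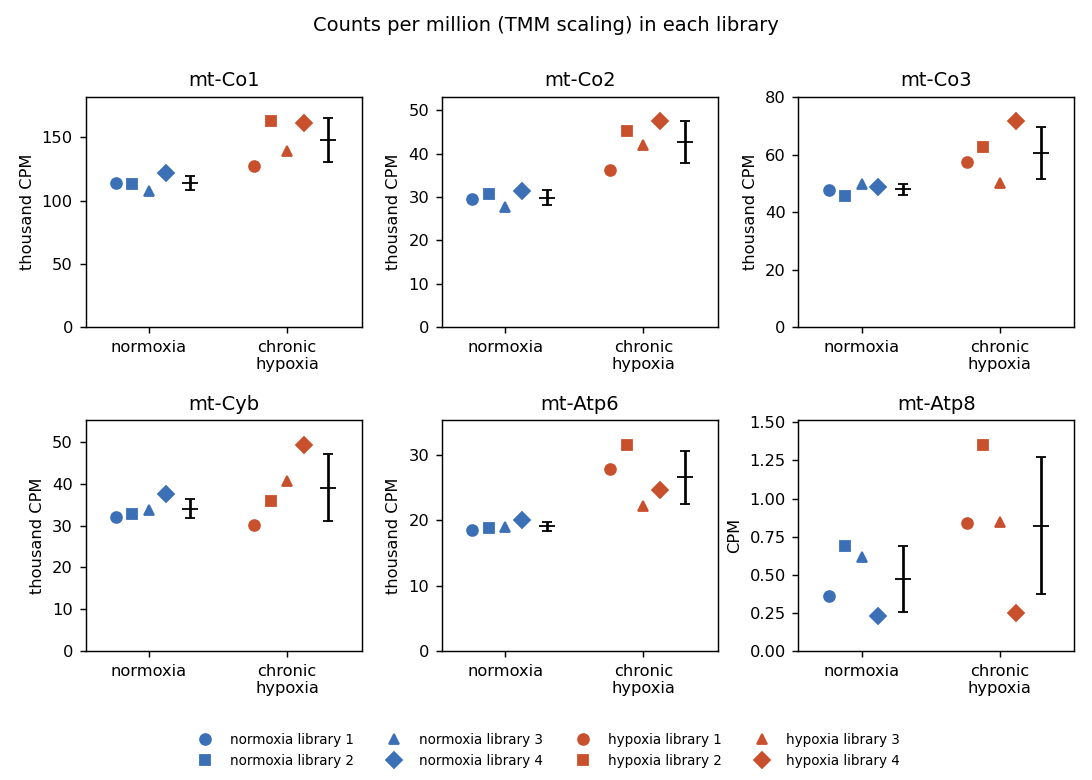
Each panel shows one gene, with CPM on the TMM scale for every library, on an axis of its own that starts at 0, and the mean ± SD of each group of 4 beside the points. In mt-Co1, mt-Co2, mt-Co3 and mt-Atp6 all 4 hypoxia libraries lie above all 4 normoxia libraries, while mt-Cyb and mt-Atp8 overlap.

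mt-Cyb, the cytochrome b subunit of complex III and the only subunit of that complex encoded in mitochondrial DNA, did not pass the test, and it split the hypoxic hearts. In normoxia the values were 32180, 32895, 33757 and 37509 CPM. The values of hypoxia libraries 1 to 4 were 30228, 36018, 40697 and 49292 CPM. The lowest and the highest of the 8 values were both hypoxic. The fitted change on the log2 scale was 0.20 (SE 0.16, edgeR adjusted p = 0.365), and the shares of counts were 3.62 ± 0.172% and 3.67 ± 0.679% (SD, n = 4 each, exact permutation p = 0.943). The fitted change differed with the pair of hypoxia libraries kept. The pairs were read from these same libraries, and 1 and 2 held the lowest hypoxia values. Such fits therefore cannot test whether the pairs differ. Without libraries 1 and 2 the log2 fold change was 0.39 (edgeR adjusted p = 0.0413), and without libraries 3 and 4 it was −0.047 (edgeR adjusted p = 0.780). Leaving out hypoxia library 4 alone took it to 0.06 and leaving out hypoxia library 1 alone took it to 0.30, neither past the threshold.

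In complex V, mt-Atp6, a subunit of the membrane channel through which protons pass, rose, with an adjusted p near the threshold. Its levels were 18418, 18760, 18958 and 19965 CPM in normoxia, a narrow band, and 27861, 31467, 22151 and 24562 CPM in hypoxia. All 4 hypoxic hearts were above the normoxic ones, and here libraries 1 and 2 were the highest, the opposite of their place in mt-Cyb. The fitted change on the log2 scale was 0.48 (SE 0.13, edgeR adjusted p = 0.0194). As a share of counts it was 2.02 ± 0.0328% and 2.49 ± 0.336% (SD, n = 4 each, exact permutation p = 0.0286, unadjusted, the smallest possible). The size held but the call did not when normoxia library 1, 2 or 3 was left out (log2 fold changes 0.46, 0.47 and 0.48, edgeR adjusted p = 0.0550, 0.0511 and 0.0565). The pairs of hypoxia libraries were read from these same data, so fits without a pair cannot test whether the pairs differ. Without hypoxia libraries 1 and 2 the log2 fold change was 0.29 (edgeR adjusted p = 0.0625), and without 3 and 4 it was 0.63 (edgeR adjusted p = 0.00117). With the length trend removed it was 0.23 (SE 0.11, edgeR adjusted p = 0.151).

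mt-Atp8, a small membrane subunit of the same complex, was almost uncounted. Its counts were 12, 21, 19 and 7 in normoxia libraries 1 to 4 and 24, 39, 22 and 7 in hypoxia libraries 1 to 4, or 151 counts in all 8 libraries, where mt-Atp6 had between 572251 and 908685 in each. Per length, the mean FPKM of mt-Atp6 was 11956 times that of mt-Atp8 in normoxia and 9621 times in hypoxia. Its level of 2.48 ± 1.16 FPKM in normoxia and 3.80 ± 2.00 FPKM in hypoxia (SD, n = 4 each) was below the median of 5.26 FPKM over the genes tested. How reads over the overlapping reading frames were counted is not given in the sources used here, and its part in this low value was not tested. Both groups held a library with 7 counts, for which the exact 95% Poisson interval is 2.81 to 14.4 counts (counting error only). The fitted change on the log2 scale was 0.79 (SE 0.49, edgeR adjusted p = 0.240) and did not pass.

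In the count of members whose groups did not overlap, 4 of 6 had every hypoxia library above every normoxia library in CPM, beside 17.3% of all genes tested. As a share of library counts 2 of 6 did, mt-Co2 and mt-Atp6, beside 9.32% of all genes tested. Scaling by library totals alone lowered the median log2 fold change of all genes from 0.01 to −0.17. On that scale mt-Co2 kept its call (log2 fold change 0.34, edgeR adjusted p = 0.0236), mt-Atp6 did not (0.30, edgeR adjusted p = 0.0565), and mt-Cyb was at 0.02. There 1 of 6 members was called, as higher, beside 1426 of 14214 genes called higher and 3872 called lower, or 37.3% in either direction. In DESeq2 4 of 6 were called higher, beside 19.5% of all genes. In edgeR without hypoxia libraries 1 and 2 it was 2 of 6, mt-Co2 and mt-Cyb, beside 20.7% of all genes. Without hypoxia libraries 3 and 4 it was 3 of 6, mt-Co2, mt-Co3 and mt-Atp6, beside 19.0%. These pairs were read from the same libraries, so fits without a pair cannot test whether the pairs differ.

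The gene models of the members are short, and in these libraries change was tied to length. The lengths recovered from the ratio of count to FPKM were 1545 bp for mt-Co1, 684 bp for mt-Co2, 784 bp for mt-Co3, 1143 bp for mt-Cyb, 681 bp for mt-Atp6 and 204 bp for mt-Atp8. Among the 2880 tested genes with a length between those of mt-Atp6 and mt-Co1, 31.2% were called higher, with a median log2 fold change of 0.22. With the members left out, a count came from a gene model of 3118 ± 18.3 bp on average in the normoxic hearts and 2754 ± 81.8 bp in the hypoxic ones (SD, n = 4 each). The shift in this mean was thus present without the members. It is weighted by counts, so abundant genes weigh most, and other mitochondrial genes were not left out. After a lowess trend of level on length was taken out of each library, none of the 6 was called. Of the 14214 genes in that fit, 3852 were called in either direction and 15.6% were called higher. There the log2 fold changes were 0.28 for mt-Co2, 0.25 for mt-Co1, 0.23 for mt-Atp6, 0.10 for mt-Co3 and 0.01 for mt-Cyb. The unadjusted edgeR p-values of the 6 genes in that fit were all above 0.05, the lowest being 0.0656 for mt-Co2. RNA quality values were not used here, and the part of RNA quality in the length shift was not tested.

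**Figure D3:**
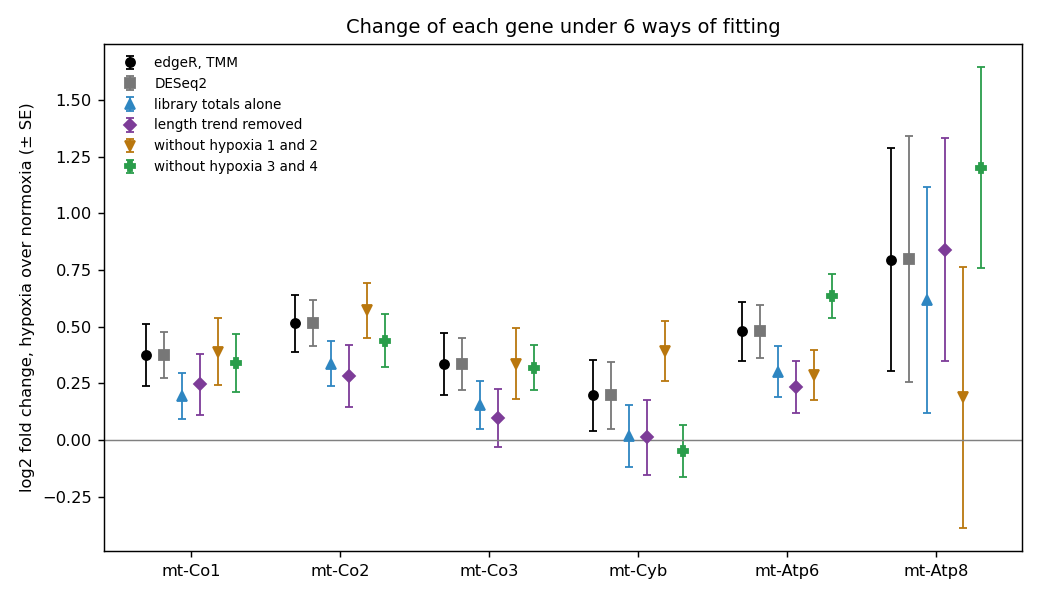
Points show the log2 fold change of each gene, hypoxia over normoxia, with bars of 1 SE, for the edgeR fit with TMM and for 5 alternatives named in the key. The estimates of mt-Co2 stay between 0.28 and 0.57, those of mt-Cyb run from −0.047 to 0.39, and library totals alone and removal of the length trend give lower values for the 5 abundant genes.

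Compared per length, the order of the members was mt-Co1, mt-Co3, mt-Co2, mt-Cyb, mt-Atp6 and mt-Atp8 in all 4 normoxic hearts. Their mean levels in normoxia were 78331 ± 2793, 64999 ± 2205, 46447 ± 2255, 31658 ± 1507, 29675 ± 482 and 2.48 ± 1.16 FPKM (SD, n = 4). In hypoxia the same order of genes stood at 89598 ± 6200, 72336 ± 7343, 58615 ± 4544, 32066 ± 5940, 36567 ± 4930 and 3.80 ± 2.00 FPKM (SD, n = 4). The 3 genes of complex IV kept their order in all 8 libraries, although in hypoxia library 3 mt-Co3 at 63810 FPKM and mt-Co2 at 61051 FPKM were close. mt-Cyb and mt-Atp6 exchanged places in hypoxia libraries 1 and 2 only. In hypoxia the means of these neighbours, 32066 and 36567 FPKM, lay closer together than the SD of either, while the other neighbours in the order lay farther apart than theirs.

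Set against the whole transcriptome, the 5 abundant members were among the 10 genes with the most counts and among the 10 with the highest FPKM in each of the 8 libraries. mt-Atp6 was the lowest of the 5 by count, at place 7 in all normoxia libraries and at places 5, 6, 7 and 7 in hypoxia libraries 1 to 4. mt-Atp8 was at places 11973 to 14564 by count.

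**Figure D4:**
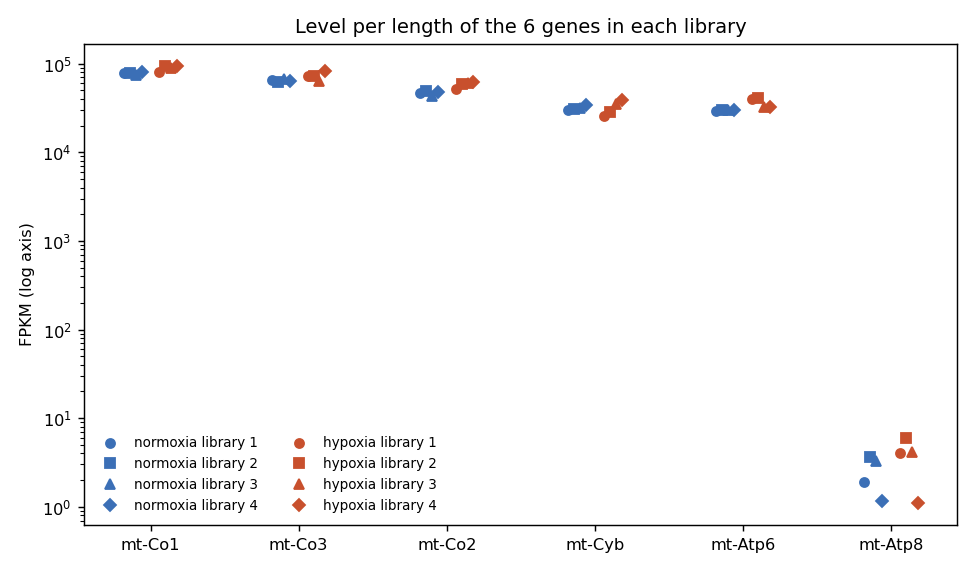
FPKM on a log axis is plotted for each gene and library, with genes ordered by their mean in normoxia and hypoxia points to the right of normoxia points. The 5 abundant genes lie between 25939 and 94449 FPKM and mt-Atp8 lies between 1.10 and 5.94 FPKM.

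Ratios were taken between members that follow each other along the coding strand, leaving out genes between them, such as those between mt-Co3 and mt-Cyb. They do not depend on how library totals are scaled, but the genes of a pair differ in length. In all, 5 were compared. The count of mt-Co2 relative to mt-Co1 was 0.260, 0.273, 0.258 and 0.259 in normoxia libraries 1 to 4 and 0.285, 0.278, 0.302 and 0.294 in hypoxia libraries 1 to 4. Every hypoxic heart lay above every normoxic one in this ratio of counts. The difference in log2 ratio was 0.14, a fold of 1.10, with a two-sided exact permutation p of 0.0286 (n = 4 each), the smallest possible, and it did not pass adjustment over the 5 ratios (exact permutation, adjusted p = 0.143). It lay between 0.12 and 0.16 with each library left out. With the length trend of both genes taken out, an alternative chosen after seeing the data, the groups overlapped and the difference was 0.032 (exact permutation p = 0.714, n = 4 each).

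The other ratios overlapped between groups. mt-Co3 relative to mt-Atp6 was 2.60, 2.43, 2.63 and 2.44 in normoxia and 2.06, 1.99, 2.27 and 2.91 in hypoxia (exact permutation p = 0.314, adjusted 0.667, n = 4 each). Libraries 1, 2 and 3 were below the normoxia range and library 4 was above it. mt-Cyb relative to mt-Co3 was 0.672, 0.722, 0.678 and 0.771 in normoxia and 0.525, 0.574, 0.809 and 0.689 in hypoxia (exact permutation p = 0.400, adjusted 0.667, n = 4 each). Here libraries 1 and 2 lay below the normoxia range, library 3 above it and library 4 inside it. The ratios of mt-Atp8 to mt-Co2 and of mt-Atp6 to mt-Atp8 had exact permutation p of 0.8 and 0.714 (adjusted 0.8 for both, n = 4 each). They rest on the 7 to 39 counts of mt-Atp8 per library.

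The pair with the widest divergence among the abundant members was mt-Atp6 and mt-Cyb, a pair singled out after its values were seen and therefore not tested. Per length, the ratio of mt-Atp6 to mt-Cyb was 0.961, 0.957, 0.943 and 0.893 in normoxia libraries 1 to 4. In hypoxia libraries 1 to 4 it was 1.55, 1.47, 0.914 and 0.836. Libraries 1 and 2 thus lay far above the normoxia values, whereas library 3 was within their range and library 4 below it.

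**Figure D5:**
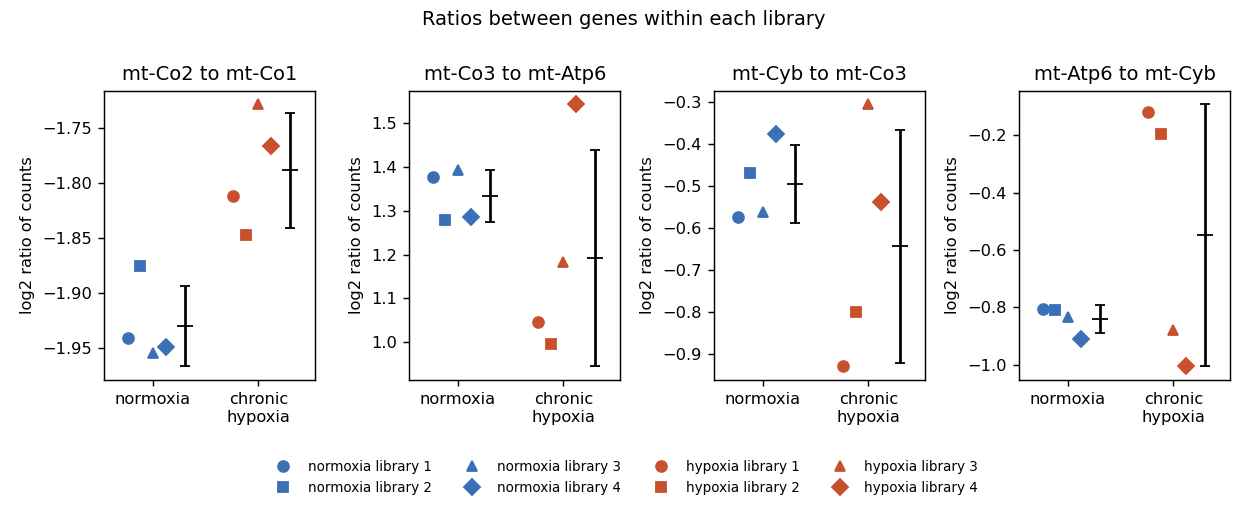
Log2 ratios of counts between 2 genes are shown for every library, with the mean ± SD of each group of 4 beside the points. In the ratio of mt-Co2 to mt-Co1, shown without the length correction, the groups separate, and in the other 3 the hypoxia libraries spread widely, with libraries 1 and 2 apart from 3 and 4 for mt-Atp6 to mt-Cyb.

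All 6 members varied more between hypoxic hearts than between normoxic ones, as did 78.7% of all genes tested. The SD of log2 CPM in normoxia and in hypoxia was 0.07 and 0.17 for mt-Co1, 0.08 and 0.17 for mt-Co2, 0.05 and 0.21 for mt-Co3, 0.10 and 0.30 for mt-Cyb, and 0.05 and 0.22 for mt-Atp6. The median over genes tested was 0.13 in normoxia and 0.23 in hypoxia. The 5 abundant members were thus below the median spread in normoxia, and mt-Cyb alone among them was above it in hypoxia. The genes tested had far fewer counts, with a median of 376.5 per library, and no set matched on level was compared. mt-Atp8, with few counts, had an SD of 0.63 and 0.91.

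The genes whose pattern over the 8 libraries was most like the members were sought among 7878 other genes whose mean level reached 10 CPM. Likeness was the root mean square difference in log2 CPM, each gene centred on its own mean, from the mean profile of the 6. The 2 closest, given by ID because no symbol could be matched, were ENSRNOG00000016180 with a difference of 0.05 and ENSRNOG00000014064 with 0.07. Those among the 4 closest all had fitted log2 fold changes above 0. That followed from the search, because the mean profile itself was lower in every normoxia library than in every hypoxia library. ENSRNOG00000016180 stood at 64.8 to 73.8 CPM in normoxia and 87.1 to 104 CPM in hypoxia, and ENSRNOG00000014064 at 76.8 to 87.3 and 99.6 to 128 CPM. The choice turned on mt-Atp8: with the profile of the 5 abundant members, an alternative chosen after seeing the data, these genes fell to places 248 and 244. Among the members themselves, mt-Co1 and mt-Co2 had the most similar patterns, with a difference of 0.08, and mt-Cyb and mt-Atp6 the least similar of the 5 abundant ones, with 0.32.

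The nuclear subunits of complexes III, IV and V, their assembly factors, the factors of mitochondrial transcription and the mitochondrial subunits of complex I were listed by symbol but not analysed here, because 0 of the 21549 IDs matched the gene table. The names of the 6 members come from the rule that chose them.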

How the data were processed

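The authors deposited raw read counts per gene and FPKM values for each of 8 heart libraries. Per the submitters' processing notes, the tools were HTSeq 0.6.0, HISAT2 2.1.0, Bowtie2 2.2.3 and bcl2fastq, with build rn6, and their roles are not stated. Annotation, strand setting and the handling of reads over overlapping genes or in several places are likewise not stated. Per the labels' protocols, Trizol was used for RNA extraction and an NEBNext Ultra kit for the libraries. Count, FPKM and library total returned 1 whole length per gene in 100% of values above 0 (relative tolerance 0.001).

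Counts were fitted over the whole table with edgeR 4.0.16 in R 4.3.3 (filterByExpr with a minimum count of 10, TMM, quasi-likelihood test with group as the only term). SEs come from the test statistic, and log2 CPM used a prior count of 2. The script was tested on simulated data. For shares and ratios, exact permutation tests (two-sided, 70 assignments) were run with scipy 1.17.1. P-values of shares were not adjusted, and those of ratios were (Benjamini-Hochberg). Alternatives included DESeq2 1.42.0, limma 3.58.1, other scalings, removal of a lowess length trend (span 0.3) and libraries left out. The named genes were the 6 members and those closest to them in pattern, at most 2 in each direction by ID. The members, lists and tests were chosen with earlier results of these data known. The RefSeq gene table (GRCr8) held no mitochondrial gene, and no sequence is printed.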

Additional observations from a re-analysis of the deposited data

Results flagged for a closer look

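Among 94 groups of 4 libraries examined by Dixon's test, 4 held a library far from the other 3 on the scale printed, and chance gives about 5% of groups. Several of these groups are the same libraries on different scales. The ratio of mt-Co2 to mt-Co1 was 0.273 in normoxia library 2 and 0.258 to 0.260 in the other normoxia libraries, which passed as a ratio but not on the log2 scale that was tested. The ratio of mt-Atp6 to mt-Atp8 was 97848 in hypoxia library 4, where mt-Atp8 had 7 counts, and 23300 to 33116 in the other hypoxia libraries. In normoxia library 3, mt-Co1 held 30.1% of the summed FPKM of the 6 genes, beside 31.4% to 31.6% in the other normoxia libraries. In the same library complex IV held 27.9% of all summed FPKM, beside 28.6% to 28.7%.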

How the results depend on the processing

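Over all genes, the number called stayed within 1.5 times of 4693 in all 22 alternatives. The split by direction moved with scaling, from 2516 higher and 2177 lower to 1426 and 3872 with library totals alone, 1195 and 3704 in limma on log2(FPKM + 1), 1195 and 3688 on log2(FPKM + 0.1), and 1108 and 3548 on log2(FPKM + 1) without a filter. mt-Co2 remained called in 20 of 22 alternatives and mt-Atp6 in 13. mt-Co2 lost its call with the length trend removed (log2 fold change 0.28) and in limma on unfiltered log2(FPKM + 1) (0.33, SE 0.78). mt-Atp6 lost it with library totals alone (0.30), with the length trend removed (0.23), in limma on log2(FPKM + 1), log2(FPKM + 0.1) and unfiltered log2(FPKM + 1) (0.29 in each), without hypoxia libraries 1 and 2 (0.29), and in 3 of 8 fits with 1 library left out (range 0.38 to 0.56). mt-Co1 passed with upper quartile scaling (0.38), in DESeq2 (0.37), in limma-voom (0.37), and in 2 fits with 1 library left out (range 0.32 to 0.43). mt-Co3 passed in DESeq2 (0.34), without hypoxia libraries 3 and 4 (0.32), and in 1 fit with 1 library left out (range 0.24 to 0.42). mt-Cyb passed without hypoxia libraries 1 and 2 (0.39) and changed sign without 3 and 4 (−0.047). mt-Atp8 passed in none of 22. The causes of these differences between fits were not tested. The pairs of hypoxia libraries left out were read from these same data.

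For shares and ratios, passing here means an unadjusted exact permutation p under 0.05. As log2 ratios of group mean shares, taken per 100 counts outside the 6 genes mt-Co1 passed (0.27). As a share of summed FPKM, mt-Co2 (0.34 to 0.20, exact permutation p = 0.0857) and mt-Atp6 (0.30 to 0.17, p = 0.2) no longer passed and mt-Cyb changed sign (−0.11). On that scale mt-Co1 went from 0.19 to 0.062, mt-Co3 from 0.15 to 0.020, the sum of the 6 genes from 0.19 to 0.071, complex IV from 0.21 to 0.084 and complex V from 0.30 to 0.17. With the length trend removed, an alternative chosen after seeing the data, the log2 ratio of mt-Co2 to mt-Co1 went from 0.14 to 0.032 and no longer passed, and the other 4 ratios stayed short of the threshold. Animals were not treated as paired by replicate number in the main tests. Deviations from the group means correlated at −0.0847 to 0.0187 within a number, which cannot show whether rats were matched. In edgeR with a replicate block, 3841 genes were called and mt-Co2 (0.51) and mt-Atp6 (0.47) remained called. A block on shares and ratios, by an exact sign-flip permutation test over 4 pairs, cannot go below p = 0.125, so mt-Co2 (0.33), mt-Atp6 (0.29) and the ratio of mt-Co2 to mt-Co1 (0.14) could not pass.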

Other observations

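Within the summed FPKM of the 6 genes, the makeup was similar in both groups for mt-Co1, at 31.2 ± 0.712% in normoxia and 31.0 ± 1.05% in hypoxia, and for mt-Co3, at 25.9 ± 1.21% and 25.0 ± 1.91% (SD, n = 4 each). mt-Co2 held 18.6%, 19.3%, 17.6% and 18.5% in normoxia libraries 1 to 4 and 19.2%, 20.1%, 21.6% and 20.1% in hypoxia libraries 1 to 4, where only hypoxia library 1 fell within the normoxia range. mt-Cyb held 9.57% and 9.58% in hypoxia libraries 1 and 2, below the normoxia range of 12.1% to 13.2%, and 12.6% and 12.5% in hypoxia libraries 3 and 4, inside it. mt-Atp6 held 14.8% and 14.0% in hypoxia libraries 1 and 2, above the normoxia range of 11.6% to 12.0%, and 11.5% and 10.5% in hypoxia libraries 3 and 4, below it. These shares sum to a whole, so a rise of one lowers the others, and they were not tested.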
